A study of Mus musculus with 12 samples.

Results

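The 8 genes described here encode S100 calcium-binding proteins: S100a1, S100a3, S100a4, S100a6, S100a10, S100a11, S100a13 and S100b. They were taken by gene name from the count table, where they are 8 of 34513 gene rows, and all 8 were among the 18338 genes with enough counts to be tested. RNA-seq counts were available for 12 libraries from mouse cell cultures, 2 in each of 6 groups. Melan-A is a line of nontumorigenic melanocytes, and B16F0 and B16F10 are melanoma lines, of which B16F10 is a derivative of B16 tumors selected for metastasis to the lung. Each line was either left untreated (control) or given SX-682, a small-molecule antagonist of the chemokine receptors CXCR1 and CXCR2, and the study asked what the drug does to gene expression in the pigment cells themselves, away from other cells of a tumor. The labels give no dose or duration of SX-682, and the study describes them for growth and staining assays of these lines but not, in the text used here, for the cultures sequenced. Each line is represented by its cultures alone. Nothing states that the 2 libraries of a group came from separate cultures, so p-values measure only the spread between these libraries, which may be technical.

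S100 proteins are small proteins that bind calcium through a pair of EF-hand motifs, mostly act as dimers, and change shape on binding calcium so that a target protein can dock. Inside the cell their targets include annexins, cytoskeletal proteins and kinases, and several members are also released and bind receptors such as the receptor for advanced glycation end products (gene Ager). S100b is a long-used marker of melanocytic and glial cells and is followed in the blood of patients with melanoma, and S100a4 and S100a6 have been studied for their links to cell motility and tumor spread.

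Libraries held from 48876982 to 85322092 counts. Levels are given as CPM, counts divided by the TMM-scaled library total, which allows for differences in library composition, and 3 counts in a library, used as the floor of detection, correspond to 0.0330 to 0.0623 CPM. Floors and intervals of count ratios cover counting error only. Intervals on the log2 scale come from the fit and include the spread between replicates. Across genes with at least 20 counts, the replicates of each group differed by more than counting error, with a chi-square per gene of 2.87 to 5.25. All 7 melanocyte markers examined were detected in every group, but their summed level was 1344 to 1374 CPM in untreated Melan-A against 18579.5 to 18664.2 CPM in untreated B16F0 and 24441.6 to 24470.5 CPM in untreated B16F10. Tyr, the rate-limiting enzyme of melanin synthesis, averaged 0.826 CPM in untreated Melan-A, 515 CPM in untreated B16F0 and 68.1 CPM in untreated B16F10. Sox10, a transcription factor of the neural crest and melanocyte lineage, went the other way, with 670 CPM in untreated Melan-A, 453 in untreated B16F0 and 586 in untreated B16F10. Among markers of other cell types, the T cell gene Cd3e was at or under the floor in every group, the keratinocyte keratin Krt1 was too, and the fibroblast genes Lum and Dcn were at or under it in both B16 lines. Others were well detected and differed by line or drug. In untreated Melan-A, B16F0 and B16F10 the 6 fibroblast markers summed to 161.2 to 165.3, 27.0 to 28.6 and 9.76 to 10.7 CPM. Pdgfrb was at 103, 11.5 and 1.19 CPM, and Col1a1, Lum and Dcn were also highest in untreated Melan-A. Col1a2 went the other way, at 0.764, 2.36 and 5.14 CPM, and Pdgfra was highest in untreated B16F0, at 8.11 CPM. Cd68, a lysosomal protein of macrophages that other cells also make, averaged 16.02 CPM in Melan-A control and 44.6 CPM with SX-682. Keratinocyte and endothelial markers summed to at most 3.39 and 2.24 CPM in any library. The part of these markers in the S100 results was not tested. In bulk RNA, fewer cells of a type and less RNA per cell cannot be told apart.

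The untreated lines were compared to learn how S100 expression differs between nontumorigenic and melanoma cells. Levels between genes are compared only per kb of exon. In untreated Melan-A, S100b was highest at 163 ± 1.13 CPM per kb (SD, n = 2), followed by S100a11 at 141 ± 2.97 and S100a10 at 120 ± 2.12 CPM per kb. S100a1 and S100a13 lay far lower, at 13.3 ± 0.868 and 10.2 ± 1.20 CPM per kb, and S100a6, S100a4 and S100a3 lower again, at 1.23, 1.10 and 0.183 CPM per kb. Values per kb use the gene lengths deposited with the counts, which for S100a3 is 2670 bases where GENCODE M21 has 5660 exon bases, so the longer length would lower each S100a3 value per kb and leave it last. The neighbours S100a6 and S100a4 in this order differed by less than the spread of their 2 libraries.

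The order was different in the melanoma lines. In untreated B16F0, S100a11 led at 201 CPM per kb, followed by S100a10 at 135, S100a1 at 92.3, S100b at 79.9, S100a13 at 17.5 and S100a6 at 10.6 CPM per kb. In untreated B16F10, S100a11 led by a wide margin at 441 CPM per kb, ahead of S100a10 at 161, S100a1 at 65.7, S100b at 27.1, S100a13 at 17.1 and S100a6 at 1.48 CPM per kb. S100a4 and S100a3 were last in both, at 0.424 and 0.0111 CPM per kb in B16F0 and 0.0811 and 0.0148 CPM per kb in B16F10, where they differed by less than the spread of the S100a4 libraries. S100b, the first of the 8 in Melan-A, ranked behind S100a11, S100a10 and S100a1 in each B16 line. The plot of untreated levels sets the 3 lines side by side.

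**Figure D1:**
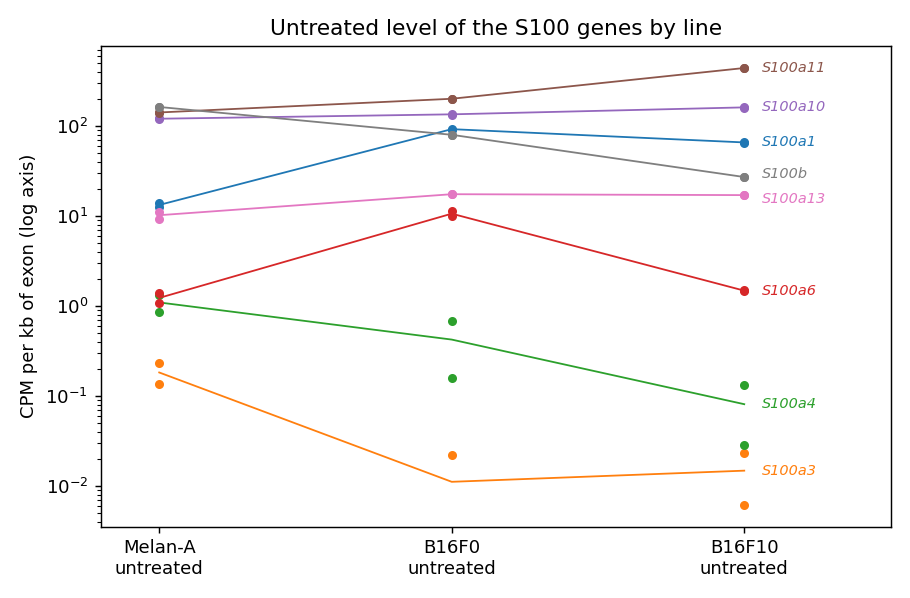
Level of each S100 gene in the untreated libraries of 3 lines, in CPM per kb of exon on a log axis. Points are libraries, lines join the means of 2 libraries, and the B16F0 library with 0 counts of S100a3 is not drawn. S100b falls from 163 to 27.1 CPM per kb from left to right while S100a11 rises from 141 to 441 CPM per kb.

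In a fit of all 12 libraries with edgeR's quasi-likelihood test and Benjamini-Hochberg adjustment over all genes tested (called at an adjusted p of 0.05 or less), all 8 genes differed between untreated B16F0 and untreated Melan-A. S100a1, S100a6, S100a10, S100a11 and S100a13 were higher in B16F0, 5 of 8 against 35.3% of all genes tested, and S100a3, S100a4 and S100b were lower, 3 of 8 against 40.6%. Between untreated B16F10 and untreated Melan-A, 4 genes were higher against 33.4% of all genes (S100a1, S100a10, S100a11 and S100a13) and 3 were lower against 40.8% (S100a3, S100a4 and S100b). S100a6 did not pass the test there. S100a3 and S100a4 had enough counts to be tested only through their Melan-A libraries. Their calls as lower in the B16 lines are therefore not separate support for a difference. With at least 10 counts required in every library, 5 genes were higher and 1 lower in B16F0, and 4 were higher and 1 lower in B16F10. The shares of all genes under that rule are not given here. Between the 2 melanoma lines, S100a10 and S100a11 were higher in B16F10, 2 of 8 against 30.8%, and S100a1, S100a4, S100a6 and S100b were lower, 4 of 8 against 31.2%. A called change of at least 1 on the log2 scale was found for 5, 5 and 4 of the 8 genes in these 3 comparisons, against 36.2%, 34.3% and 19.9% of all genes. The median log2 difference of the 8 genes was 0.33, 0.34 and -0.26, and that of all genes tested was -0.06, -0.10 and -0.00165. The 3 comparisons share their control libraries with each other and with the drug comparisons.

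SX-682 was then compared with control within each line. None of the 8 genes was called higher in any line, where 23.4%, 25.1% and 25.5% of all genes were called higher in Melan-A, B16F0 and B16F10. In Melan-A 6 of 8 fell, against 24.7% of all genes: S100a1, S100a6, S100a10, S100a11, S100a13 and S100b. In B16F0 6 of 8 fell, against 25.0%: S100a1, S100a4, S100a6, S100a10, S100a11 and S100b. In B16F10 3 of 8 fell, against 25.3%: S100a10, S100a11 and S100b. Falls of at least 1 on the log2 scale were 1 in Melan-A (S100a11), 1 in B16F0 (S100a4) and 0 in B16F10, against 5.50%, 7.83% and 8.18% of all genes changing that much in either direction. The median log2 change of the 8 genes was -0.68, -0.44 and -0.21 in Melan-A, B16F0 and B16F10, where the median of all genes tested was 0 in each line. The plot of every library shows these values gene by gene.

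**Figure D2:**
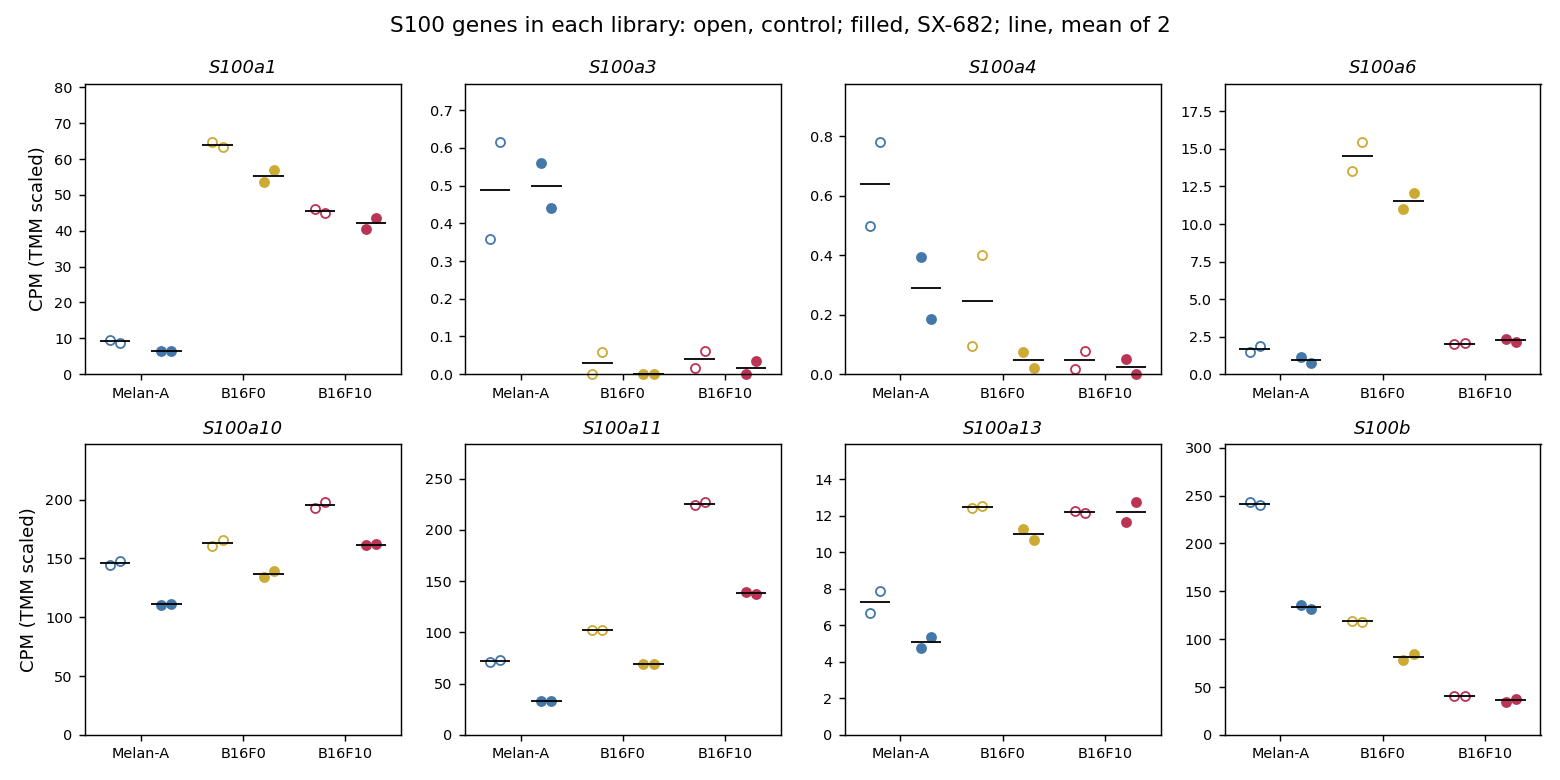
CPM (TMM scaled, linear axes that start at 0) of each S100 gene in each of 12 libraries, with open points for control, filled points for SX-682 and a line at the mean of 2. For S100a1, S100a10, S100a11 and S100b both SX-682 libraries lie below both controls in all 3 lines, and S100a3 and S100a4 stay below 1 CPM throughout. The share of all genes whose libraries separate in this way is not given here.

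Mitochondrial transcripts took a larger share of counts with SX-682 in every line, from 0.957% to 0.968% in control against 1.15% in Melan-A, from 0.756% to 0.779% against 0.847% to 0.863% in B16F0 and from 0.989% to 1.02% against 1.24% in B16F10. The part of this shift in the S100 changes was not tested.

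S100a11 (ENSMUSG00000027907.4, GRCm38 chromosome 3, 93520488 to 93526287, plus strand) encodes a partner of annexin A1 with roles in membrane repair and growth control. Its estimated fall was the largest among the 6 well-counted genes in every line. In B16F0 the fall of S100b was about as large, at -0.54 ± 0.035 (SE) on the log2 scale against -0.57 ± 0.031 for S100a11. Control libraries held 71.2 and 73.3 CPM of S100a11 in Melan-A, 102 and 103 CPM in B16F0, and 224 and 227 CPM in B16F10. With SX-682 they held 32.8 and 33.0 CPM in Melan-A, 68.9 and 69.6 CPM in B16F0, and 139 and 138 CPM in B16F10. In each line both treated libraries lay well below both controls, and the groups did not overlap. The log2 change was -1.14 ± 0.033 (SE) in Melan-A, where the level decreased by 54.5% (edgeR adjusted p = 8.95e-22). It was -0.57 in B16F0 (edgeR adjusted p = 1.85e-15) and -0.70 in B16F10 (edgeR adjusted p = 1.26e-18). The fall was deeper in Melan-A than in B16F0 by 0.57 on the log2 scale (edgeR adjusted p = 3.05e-11) and than in B16F10 by 0.43 (edgeR adjusted p = 3.40e-09), and deeper in B16F10 than in B16F0, with a log2 difference of -0.14 (edgeR adjusted p = 0.0147). Untreated B16F10 held 3.12-fold as much S100a11 as untreated Melan-A (edgeR adjusted p = 1.77e-28) and 2.20-fold as much as untreated B16F0 (edgeR adjusted p = 4.77e-24).

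The S100a11 promoter window is shown because it differed from the other S100 windows in the motifs it held. The RefSeq window of 300 bases (250 before the transcription start to 50 after, GRCm38.p6, plus strand, chr3:93520246-93520545) reads as follows, with the capitals marking the AP-1 motif TGANTCA, searched on both strands, and the E-box CACGTG.
S100a11: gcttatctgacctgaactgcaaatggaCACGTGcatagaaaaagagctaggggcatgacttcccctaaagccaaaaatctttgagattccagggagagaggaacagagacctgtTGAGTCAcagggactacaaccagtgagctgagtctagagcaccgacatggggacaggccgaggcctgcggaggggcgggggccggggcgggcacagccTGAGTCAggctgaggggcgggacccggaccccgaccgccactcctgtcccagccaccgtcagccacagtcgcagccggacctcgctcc
TGANTCA stood at -136 and -38 relative to the start, and CACGTG at -223, each given by its first base with the start as 0. Of 32851 such windows of all genes, 7.81% held TGANTCA at least once, 0.46% held it 2 or more times and 7.15% held CACGTG. Windows were available for 7 of the 8 genes, some with several starts, 10 windows in all. TGANTCA was found in no other gene's window, CACGTG in 1 other (S100a6), and the E-box CATGTG, present in 14.2% of all windows, only in 1 window of S100a3, at -64. A match describes these letters and was not tested as a binding site.

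S100a10 (ENSMUSG00000041959.14, GRCm38 chromosome 3, 93555080 to 93564643, plus strand), whose protein forms a stable complex with annexin A2 without needing calcium and carries membrane proteins to the cell surface, fell in all 3 lines by smaller amounts. Controls held 144 and 148 CPM in Melan-A, 161 and 166 in B16F0 and 193 and 198 in B16F10. SX-682 libraries held 111 and 111 CPM in Melan-A, 135 and 139 in B16F0 and 161 and 162 in B16F10. Treated and control libraries were separate in each line. Log2 changes were -0.40 in Melan-A (edgeR adjusted p = 9.25e-13), -0.26 in B16F0 (edgeR adjusted p = 9.80e-09) and -0.27 in B16F10 (edgeR adjusted p = 1.88e-09). The change in B16F10 minus that in B16F0 was -0.02, with a 95% interval from -0.10 to 0.07, whereas Melan-A differed from B16F0 by 0.14 (edgeR adjusted p = 0.00680) and from B16F10 by 0.13 (edgeR adjusted p = 0.0154). Untreated levels rose in small steps, by 0.16 on the log2 scale from Melan-A to B16F0 and by 0.26 from B16F0 to B16F10. S100a10 and its neighbour S100a11, 28792 bases apart, had a Pearson correlation of 0.98 in log2 CPM over the 12 libraries, a description across 6 groups of 3 lines.

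S100b (ENSMUSG00000033208.7, GRCm38 chromosome 10, 76253853 to 76261159, plus strand), the member used as a melanocytic and glial marker, is the only one of the 8 outside chromosome 3. It held 243 and 240 CPM in untreated Melan-A, 119 and 118 CPM in untreated B16F0 and 40.4 and 40.1 CPM in untreated B16F10. These groups were far apart, with B16F0 lower than Melan-A, with a log2 difference of -1.03 (edgeR adjusted p = 3.83e-22), and B16F10 lower than Melan-A, with a log2 difference of -2.59 (edgeR adjusted p = 5.14e-31). SX-682 libraries held 135 and 132 CPM in Melan-A, 78.7 and 84.2 CPM in B16F0 and 34.7 and 37.7 CPM in B16F10. All treated libraries lay below their controls, but the gap narrowed from Melan-A to B16F10.

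With SX-682, S100b fell by 44.8% in Melan-A, with a log2 change of -0.86 ± 0.033 (SE, edgeR adjusted p = 4.25e-19). In B16F0 the log2 change was -0.54 (edgeR adjusted p = 8.07e-14), and in B16F10 -0.15 ± 0.042 (SE, edgeR adjusted p = 0.00265). Every pair of lines differed, B16F0 from Melan-A by 0.31 (edgeR adjusted p = 4.78e-06), B16F10 from Melan-A by 0.70 (edgeR adjusted p = 7.87e-12) and B16F10 from B16F0 by 0.39 (edgeR adjusted p = 1.90e-06). In B16F10 the call rests on 1 library, as it was lost without SX-682 replicate 1, where the log2 change was -0.10 (edgeR adjusted p = 0.0894). The gene span of S100b overlaps that of Dip2a on the opposite strand but shares 0 exon bases with it, and Dip2a fell by 0.25, 0.28 and 0.22 on the log2 scale in Melan-A, B16F0 and B16F10. Whether reads were counted by strand is not given in the sources used here.

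S100a1 and S100a13 lie head to head on chromosome 3 of GRCm38, S100a1 (ENSMUSG00000044080.9) at 90511034 to 90514392 on the minus strand and S100a13 (ENSMUSG00000042312.9) at 90514435 to 90524581 on the plus strand, with 42 bases between them. The window of 300 bases at the S100a13 start (RefSeq, GRCm38.p6, plus strand, chr3:90514185-90514484) is shown because the annotated starts of both genes lie in it. Its capitals mark the 42 bases that belong to neither gene, and the S100a1 window overlaps it over 204 bases.
S100a13: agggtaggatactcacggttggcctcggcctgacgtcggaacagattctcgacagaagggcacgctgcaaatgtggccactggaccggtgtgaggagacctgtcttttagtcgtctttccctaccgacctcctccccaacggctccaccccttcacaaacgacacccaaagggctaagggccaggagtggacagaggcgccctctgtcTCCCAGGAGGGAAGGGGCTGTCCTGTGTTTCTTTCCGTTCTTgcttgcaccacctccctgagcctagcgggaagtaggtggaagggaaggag
By the deposited coordinates, S100a1, on the other strand, begins just before the capitals and S100a13 just after them, and the starts that RefSeq gives are 104 bases apart. This window is 59.3% GC, and neither it nor the S100a1 window held any of the 3 motifs searched for.

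S100a1, best known in heart muscle as a regulator of calcium cycling in the sarcoplasmic reticulum, held 9.64 and 8.78 CPM in untreated Melan-A, 64.8 and 63.2 in untreated B16F0 and 46.2 and 45.0 in untreated B16F10. Both melanoma lines were far above Melan-A, B16F0 6.96-fold (edgeR adjusted p = 2.18e-27) and B16F10 4.95-fold (edgeR adjusted p = 6.13e-25). With SX-682 the libraries held 6.35 and 6.54 CPM in Melan-A, 53.6 and 57.0 in B16F0 and 40.5 and 43.7 in B16F10. Treated libraries were below control libraries in each line. The log2 change was -0.51 ± 0.073 (SE) in Melan-A (edgeR adjusted p = 6.05e-07) and -0.21 ± 0.048 in B16F0 (edgeR adjusted p = 0.000398). In B16F10 it was -0.11, with a 95% interval from -0.22 to -0.01, and did not pass (edgeR adjusted p = 0.0588), although it did with RLE in place of TMM scaling (edgeR adjusted p = 0.0463). Leaving out 1 library at a time gave edgeR adjusted p from 0.0263 to 0.401, the lowest without B16F10 SX-682 replicate 2, at -0.17, and the highest without B16F10 SX-682 replicate 1, at -0.07. The change in Melan-A differed from that in B16F0 by 0.30 (edgeR adjusted p = 0.00732) and from that in B16F10 by 0.40 (edgeR adjusted p = 0.000591).

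S100a13, which binds copper and takes part in the export of the growth factor FGF1, held 6.69 and 7.90 CPM in untreated Melan-A, 12.4 and 12.6 in untreated B16F0 and 12.3 and 12.1 in untreated B16F10. It was higher in both melanoma lines, by 0.77 in B16F0 (edgeR adjusted p = 6.91e-09) and 0.74 in B16F10 (edgeR adjusted p = 2.23e-08) on the log2 scale. SX-682 libraries held 4.78 and 5.38 CPM in Melan-A, 11.3 and 10.7 in B16F0 and 11.7 and 12.7 in B16F10. Groups were separate in Melan-A and B16F0 and overlapped in B16F10. The log2 change was -0.52 in Melan-A, where the level decreased by 30.4% (edgeR adjusted p = 5.04e-05), and -0.18 in B16F0, with a 95% interval from -0.37 to 0.00326, which did not pass (edgeR adjusted p = 0.0980). In B16F10 it was 0.00079 ± 0.090 (SE), with a 95% interval from -0.18 to 0.19, and its sign turned with scaling, to -0.00596 with RLE. B16F10 differed from Melan-A by 0.52 (edgeR adjusted p = 0.00251), and the log2 CPM of S100a1 and S100a13 had a Pearson correlation of 0.95 over the 12 libraries.

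S100a6 (ENSMUSG00000001025.8, GRCm38 chromosome 3, 90612882 to 90624181, plus strand), also called calcyclin and known to be raised in proliferating cells, was set apart by its level in B16F0. Untreated libraries held 13.5 and 15.5 CPM in B16F0, 1.46 and 1.90 in Melan-A and 1.98 and 2.07 in B16F10. B16F0 stood 8.60-fold above Melan-A (edgeR adjusted p = 3.14e-18) and B16F10 stood 7.16-fold below B16F0 (edgeR adjusted p = 1.13e-16), whereas B16F10 and Melan-A differed by 0.27 on the log2 scale with a 95% interval from -0.09 to 0.62 (edgeR adjusted p = 0.166). Without Melan-A control replicate 2 that difference was 0.48 and passed (edgeR adjusted p = 0.0364). The promoter window of S100a6 (RefSeq, GRCm38.p6, plus strand, chr3:90612644-90612943) is shown to set beside that of S100a11, with the E-box CACGTG, at +14, in capitals.
S100a6: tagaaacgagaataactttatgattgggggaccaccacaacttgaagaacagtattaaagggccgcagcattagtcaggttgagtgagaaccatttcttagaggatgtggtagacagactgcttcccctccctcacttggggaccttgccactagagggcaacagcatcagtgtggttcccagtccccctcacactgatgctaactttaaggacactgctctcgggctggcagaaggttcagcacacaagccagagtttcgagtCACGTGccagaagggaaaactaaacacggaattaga
With SX-682, S100a6 held 1.14 and 0.759 CPM in Melan-A, 10.97 and 12.1 in B16F0 and 2.36 and 2.14 in B16F10. Treated libraries were below controls in Melan-A and B16F0 and above them in B16F10. The log2 change was -0.83 ± 0.19 (SE) in Melan-A (edgeR adjusted p = 0.000496), -0.33 ± 0.12 in B16F0 (edgeR adjusted p = 0.0221) and 0.15 ± 0.17 in B16F10 (edgeR adjusted p = 0.514). The difference of 0.99 between B16F10 and Melan-A passed (edgeR adjusted p = 0.00317), and those of B16F0 from Melan-A (0.50, edgeR adjusted p = 0.0925) and of B16F10 from B16F0 (0.49, edgeR adjusted p = 0.0872) did not. The B16F0 call was lost without control replicate 2 (edgeR adjusted p = 0.235), without SX-682 replicate 1 (edgeR adjusted p = 0.192) and with DESeq2 (adjusted p = 0.0680).

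S100a4 (ENSMUSG00000001020.8, GRCm38 chromosome 3, 90603771 to 90606045, plus strand), a motility-linked protein also called metastasin that binds nonmuscle myosin IIA, was near the floor. It had 43 and 71 counts in untreated Melan-A, 7 and 27 in untreated B16F0 and 1 and 5 in untreated B16F10, and with SX-682 28 and 14, 5 and 1, and 3 and 0. Counts were lower in the treated libraries of Melan-A and B16F0, overlapped in B16F10 and spread widely between replicates. In counts summed over 2 libraries and scaled, the ratio of SX-682 to control was 0.446 (95% interval 0.305 to 0.640) in Melan-A, 0.220 (0.0755 to 0.530) in B16F0 and 0.522 (0.0845 to 2.44) in B16F10, intervals that cover counting error alone. On the scale of the fit, with replicate spread included, only the B16F0 change of -2.20 ± 0.87 (SE) was called (edgeR adjusted p = 0.0363), while Melan-A had -1.15 (edgeR adjusted p = 0.119) and B16F10 -0.89 (edgeR adjusted p = 0.614). The B16F0 call was lost without control replicate 2, where the change was -0.83 (edgeR adjusted p = 0.600), and without SX-682 replicate 2, at -1.66 (edgeR adjusted p = 0.179), and without SX-682 replicate 1 it was -3.44 (edgeR adjusted p = 0.0428).

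S100a4 had enough counts to be tested only through its Melan-A libraries, which favored calls of lower in the B16 lines. Between untreated lines S100a4 was lower in B16F10 than in Melan-A, with a log2 difference of -3.69 (edgeR adjusted p = 0.000128). It was -3.00 without B16F10 control replicate 1 and -5.12 without B16F10 control replicate 2, and the call held. The difference of B16F0 from Melan-A, -1.39 (edgeR adjusted p = 0.0415), was lost with DESeq2 (adjusted p = 0.104), without Melan-A control replicate 2 and without B16F0 control replicate 1, where it was -0.67, and it was -2.75 without B16F0 control replicate 2. The difference of B16F10 from B16F0, -2.30 (edgeR adjusted p = 0.0220), was lost without B16F0 control replicate 2 and without B16F10 control replicate 1, at -0.93 and -1.61, and it was -3.73 without B16F10 control replicate 2. Of the 584 exon bases of S100a4, 302 (51.7%) are shared on the same strand with Gm42674, which had 0 to 2 counts, so reads over those bases could have been left uncounted or split and the S100a4 level is uncertain.

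S100a3 (ENSMUSG00000001021.13, chromosome 3, 90584659 to 90602702 in GRCm38 as deposited, plus strand), a cysteine-rich protein of the hair cuticle, had 31 and 56 counts in untreated Melan-A and 40 and 33 with SX-682. B16F0 had 0 and 4 counts in control and 0 and 0 with SX-682, and B16F10 had 1 and 4 in control and 0 and 2 with SX-682. Control and treated libraries overlapped in each line, and in both B16 lines most libraries were at or under the floor. In Melan-A the ratio of scaled counts with SX-682 to control was 1.02, with a 95% interval from 0.734 to 1.40. S100a3 did not pass the test for SX-682 in any line, and in the B16 lines a change was not detectable at this depth. Untreated B16F0 held 0.0573 times the Melan-A level (95% interval 0.0153 to 0.152, edgeR adjusted p = 9.90e-05) and untreated B16F10 0.0819 times (0.0259 to 0.198, edgeR adjusted p = 0.000308). S100a3 had enough counts to be tested only through its Melan-A libraries, which favored both of these calls. Without control replicate 2, the B16F0 control was left with 0 counts and the B16F10 control with 1, and the log2 difference then was -8.07, a value that depends on the prior count, and -4.73. Over all libraries left out in turn it ran from -8.07 to -3.00 for B16F0 and from -4.73 to -2.92 for B16F10, and both calls held whichever library was left out (edgeR adjusted p of at most 0.00510 and 0.00961).

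The design also allows the SX-682 change itself to be compared among the 3 lines. In an F-test of the interaction, the change differed for 6 of the 8 genes against 47.4% of all genes tested: S100a1, S100a6, S100a10, S100a11, S100a13 and S100b. The change in B16F0 differed from that in Melan-A for 4 of 8, against 34.4%, and that in B16F10 differed from that in Melan-A for 6 of 8, against 33.8%. Only S100a11 and S100b differed between B16F10 and B16F0, 2 of 8 against 30.3%. For all 6 genes, which are those the interaction test called, the estimate in Melan-A was the most negative of the 3. The share of all genes with this order is not given here. The interaction was lost for S100a6 without Melan-A SX-682 replicate 2 (edgeR adjusted p = 0.0562), and for S100a10 and S100a13 without Melan-A control replicate 2 or SX-682 replicate 1 (edgeR adjusted p of up to 0.0667 and 0.0708). The plot of log2 changes shows the 3 lines for each gene.

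**Figure D3:**
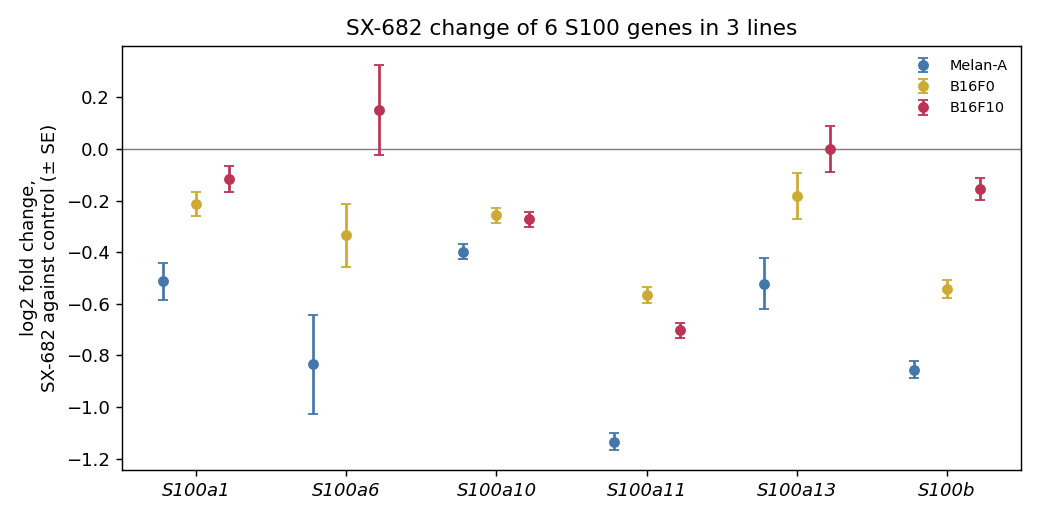
Log2 fold change of SX-682 against control (points, with bars for ± 1 SE of the edgeR fit) for 6 S100 genes in Melan-A, B16F0 and B16F10. S100a3 and S100a4, near the floor, are left out. S100a11 lies between -1.14 and -0.57 in all 3 lines, and S100a6 and S100a13 reach 0.15 and 0.00079 in B16F10.

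Genes for known S100 partners and receptors were examined as a list of 28, of which 26 were tested. With SX-682, 4 rose and 16 fell in Melan-A, 6 rose and 13 fell in B16F0, and 8 rose and 9 fell in B16F10. Of all genes tested, 23.4% rose and 24.7% fell in Melan-A, 25.1% and 25.0% in B16F0, and 25.5% and 25.3% in B16F10. The median log2 change of the list was -0.13, -0.11 and -0.05, beside 0 for all genes in each line. Anxa1, the partner of S100a11, fell in every line, by 0.36, 0.25 and 0.38 on the log2 scale in Melan-A, B16F0 and B16F10, and Cacybp, which links S100a6 to ubiquitin ligation, fell by 0.39, 0.24 and 0.41. Anxa2, the partner of S100a10, had 841 and 844 CPM in Melan-A control against 758 and 766 CPM with SX-682, a log2 change of -0.14 (edgeR adjusted p = 5.46e-07), against -0.02 in B16F0 (edgeR adjusted p = 0.410) and 0.09 in B16F10 (edgeR adjusted p = 0.000572). Ahnak, a giant scaffold bound by the complex of S100a10 and annexin A2, fell by 0.22 in Melan-A and rose by 0.33 and 0.41 in B16F0 and B16F10. Myh9, the myosin heavy chain bound by S100a4, fell by 0.11 in Melan-A and rose by 0.80 and 0.49 in the B16 lines. The receptor gene Ager had few counts, 45 and 28 against 14 and 16 in Melan-A (log2 change -1.01, edgeR adjusted p = 0.0492), 96 and 87 against 31 and 21 in B16F0 (-1.50, edgeR adjusted p = 0.00103) and 21 and 30 against 23 and 26 in B16F10 (0.01). Between untreated lines, 11 of the 26 were higher and 13 lower in B16F0 than in Melan-A, 14 higher and 8 lower in B16F10 than in Melan-A, and 15 higher and 6 lower in B16F10 than in B16F0, where 35.3% and 40.6%, 33.4% and 40.8%, and 30.8% and 31.2% of all genes were higher and lower.

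**Figure D4:**
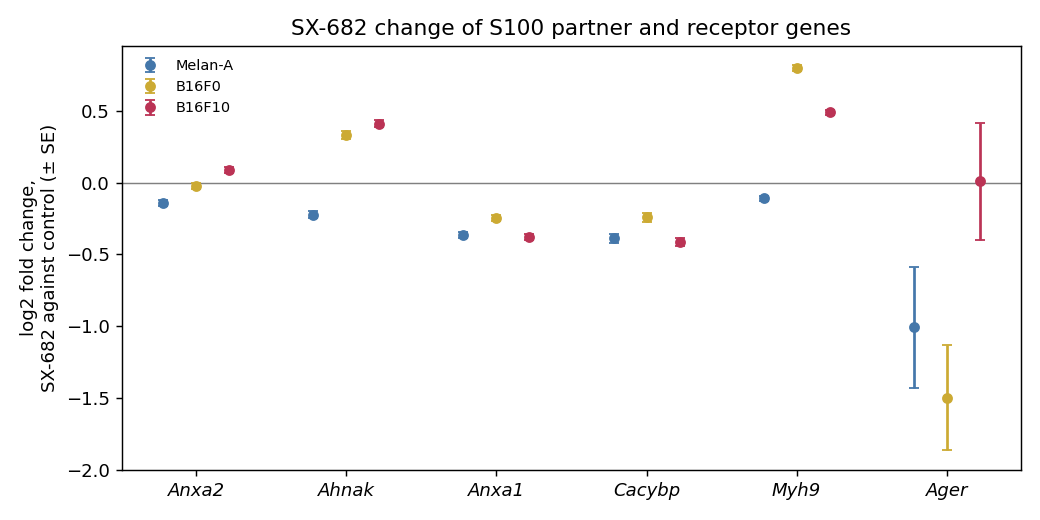
Log2 fold change of SX-682 against control (points, with bars for ± 1 SE of the edgeR fit) for 6 genes whose products bind S100 proteins, in 3 lines. Anxa1 and Cacybp lie below 0 in all 3 lines, and Ahnak and Myh9 lie below 0 in Melan-A and above 0 in B16F0 and B16F10.

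The 7 genes on chromosome 3 span 3054 kb from S100a1 to S100a10. Between them lie 56 other gene rows, of which 14 were tested and 28 never exceeded 3 counts in a library. Among the tested rows, 1 rose and 1 fell with SX-682 in Melan-A, 1 rose in B16F0 and 2 fell in B16F10, where 23.4% to 25.5% of all genes rose and 24.7% to 25.3% fell in the 3 lines. Apart from S100a16, with up to 2605 counts, the tested rows had at most 277 counts in a library, so changes in them were hard to detect. S100a1, S100a6, S100a10, S100a11, S100a13 and S100a16 had the most counts of the interval, as the plot of counts along the cluster shows. S100a3 and S100a4 reached at most 56 and 71 counts in a library, fewer than Gm9774 at 107.

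**Figure D5:**
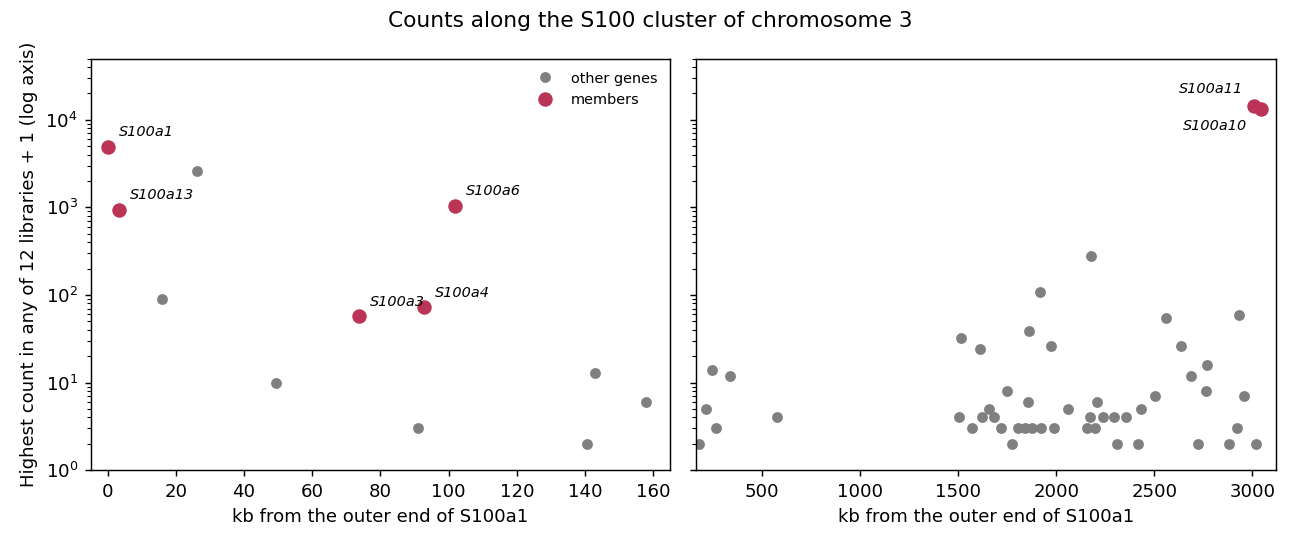
Highest count plus 1 in any of 12 libraries (log axis) for genes between S100a1 and S100a10 on chromosome 3, against distance in kb from the outer end of S100a1. The left panel covers the first part at a wider scale than the right one. S100a11 and S100a10 stand highest at the far end, and S100a16 is the 1 other gene in the range of S100a1 and S100a6.

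The other 8 rows of the S100 family were S100a2, S100a7a, S100a7l2, S100a8, S100a9, S100a11-ps, S100a14 and S100a16, and 3 of them were tested. S100a16 had the most counts of the 3, with untreated levels of 30.1 and 28.7 CPM in Melan-A, 6.70 and 7.06 CPM in B16F0 and 0.232 and 0.407 CPM in B16F10, and its log2 change with SX-682 was -0.40 in Melan-A (edgeR adjusted p = 3.12e-05), 0.04 in B16F0 (edgeR adjusted p = 0.798) and -1.78 in B16F10 (edgeR adjusted p = 0.00131). The B16F10 change rests on few counts, 14 and 26 in control against 4 and 7 with SX-682. S100a14 had 88 and 88 counts in untreated Melan-A and 2 or fewer in each untreated B16 library. S100a7a was called higher with SX-682 in B16F0 (edgeR adjusted p = 0.0442) on 8 counts in 1 library against 0 in the other and in both controls. S100a8 and S100a9, the calprotectin genes of neutrophils, had at most 5 and 1 counts in any library, and S100a2 had at most 9.

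The gene whose log2 CPM was most like each S100 gene over the 12 libraries, among 10951 genes with a mean log2 CPM of at least 1, is given as a description, since the libraries share 3 lines and 2 treatments. These were Slc24a5 for S100a1 (Pearson correlation 0.999), Cwc25 for S100a3 (0.966), Ccdc71l for S100a4 (0.934), Trappc11 for S100a6 (0.988), Dbi for S100a10 (0.987), Actr1a for S100a11 (0.995), Dynlt1b for S100a13 (0.991) and Cavin2 for S100b (0.996). Among genes beside the S100 genes, Chtop, next to S100a1, changed by -0.19, 0.09 and -0.12 with SX-682 in the 3 lines, in the same order, and Prmt2, next to S100b, did not pass in any line.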

How the data were processed

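RNA was taken from cultures of Melan-A, B16F0 and B16F10 cells, untreated or treated with SX-682, with 2 libraries per group. The authors deposited raw counts per gene for the 12 libraries, and the submitters' processing notes name cutadapt, STAR and DESeq2 without versions and the build mm10 (GRCm38). The counting program, its strand setting and the annotation release are not given in the sources used here. Samples were grouped by their titles, columns of counts were matched to samples by name, and 0 columns belonged to no sample. Depth ran from 48876982 to 85322092 counts.

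Counts as deposited were fitted with edgeR 4.0.16 (R 4.3.3, limma 3.58.1) by the quasi-likelihood test on all 12 libraries in 6 groups, with TMM scaling, after filterByExpr kept 18338 of 34513 genes. Residual degrees of freedom were 6, prior degrees of freedom 21.9 and the common biological coefficient of variation 2.78%. Log2 fold changes used a prior count of 0.125, standard errors came from the F statistic and p-values were adjusted by the Benjamini-Hochberg method at 0.05 over all genes tested. Intervals of fold changes were 95%, and intervals of count ratios were exact and conditional on the summed counts. Log2 CPM for correlations used a prior count of 2. Alternatives were DESeq2 1.42.0, RLE scaling, no filter or at least 10 counts in every library, a prior count of 2, fits of only the groups compared, the replicate number as a block, a log2 limit of 1 and leaving out each library in turn. The pipeline was tested on simulated data.

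Genes named were the 8 members, other S100 rows with over 3 counts, 6 partner genes chosen for their role, the nearest tested genes on the chromosome and the gene most correlated with each member. S100a9, below that limit, and the rows that complete the family were named after their values were seen. The members, lists and markers were chosen with earlier results of these data known. Promoter windows came from RefSeq (GRCm38.p6) and matched 7 of the 8 genes, all but S100a10. Protein sequences were not used here. The values of 1 list of marker genes are not reported here.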

Additional observations from a re-analysis of the deposited data

Results flagged for a closer look

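The SX-682 change differed among Melan-A, B16F0 and B16F10 for 6 of the 8 S100 genes, by the F-test of the interaction in edgeR with Benjamini-Hochberg adjustment. The distance between the largest and the smallest log2 change was 0.40 for S100a1 (-0.51 in Melan-A to -0.11 in B16F10, adjusted p = 0.00148), 0.99 for S100a6 (-0.83 in Melan-A to 0.15 in B16F10, adjusted p = 0.00778) and 0.14 for S100a10 (-0.40 in Melan-A to -0.26 in B16F0, adjusted p = 0.00767). It was 0.57 for S100a11 (-1.14 in Melan-A to -0.57 in B16F0, adjusted p = 3.89e-11), 0.52 for S100a13 (-0.52 in Melan-A to 0.00079 in B16F10, adjusted p = 0.00591) and 0.70 for S100b (-0.86 in Melan-A to -0.15 in B16F10, adjusted p = 2.37e-11). Of all genes tested, 47.4% differed among lines by this test.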

How the results depend on the processing

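Of 131 recomputed counts of called S100 genes, 127 stayed within 1.5 times the count reported. The 4 that moved came from also requiring a log2 change of at least 1, which left 1, 1 and 0 genes for SX-682 in Melan-A, B16F0 and B16F10 and 5 for untreated B16F0 against Melan-A. Without 1 library at a time, the genes called numbered 6 to 6, 4 to 6 and 2 to 4 for SX-682 in Melan-A, B16F0 and B16F10, 7 to 8, 7 to 8 and 5 to 6 for the 3 untreated comparisons and 4 to 6 for the interaction. Where this left a group with 1 library, that library was assumed to vary like the other groups.

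Of 364 single-gene values under settings other than leaving out a library, 352 kept their direction and side of the threshold, 3 lost a call, 4 gained one and 5 changed sign. All 5 were S100a13 with SX-682 in B16F10, at -0.00587 with DESeq2, -0.00596 with RLE scaling, -0.00830 without a filter, -0.00468 with at least 10 counts in every library and -0.00159 in a fit of the groups compared, beside 0.00079 as reported. Of 672 values without 1 library, 634 kept both, 14 lost a call, 6 gained one and 18 changed sign. Those signs belonged to S100a13 in B16F10 with SX-682 (-0.0601 to 0.0535), to S100a3 with SX-682 in Melan-A (-0.29 to 0.48), B16F0 (-5.06 to 0) and B16F10 (-4.55 to 0.0150) and between untreated B16F10 and B16F0 (-0.71 to 4.53), and to S100a4 with SX-682 in B16F10 (-4.79 to 0.55). The cause was not tested.

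Deviations of control and SX-682 libraries with the same replicate number correlated at -0.03, -0.01 and -0.0089 in the 3 lines, so no shared deviation was seen. Whether same-numbered libraries were paired in the design is not stated, and these values cannot decide it. With the number as a replicate block, 6, 5 and 3 genes were called for SX-682 in Melan-A, B16F0 and B16F10, 8, 7 and 6 for the untreated comparisons and 6 for the interaction, and S100a4 in B16F0 had a log2 change of -1.97 (edgeR adjusted p = 0.0816). Depth limits S100a3 and S100a4, whose B16 libraries held few counts. Median log2 differences of all genes moved by 0.1 or less between TMM and RLE scaling.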
